A study of Mus musculus with 4 samples.

Results

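Among 35228 cells of the Tbx1-Cre lineage of the mouse embryo, 578 cells combined transcripts of the contractile genes Tagln and Myl9 with the forkhead factors Foxl1 and Foxf2 and with Adamtsl1, and these cells are described here as contractile mesenchyme. A cell was a member when at least 3 of Tagln, Myl9, Foxl1 and Foxf2 were detected, with at least 2 UMIs (unique molecular identifiers, each standing for 1 captured transcript) of Tagln and at least 1 UMI of Adamtsl1. The heart muscle genes Tnnt2, Myh7, Myl7, Myl4 and Actc1 together had to stay under 0.25% of the UMIs of the cell, and Epcam and Cdh5, which mark epithelium and endothelium, had to be at 0. The remaining 34650 cells kept are called the other cells. The members were thus chosen by the measured UMIs of these 12 genes in the same cells, and every level set against the other cells is a description without a test.

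The cells came from mouse embryos of embryonic day 9.5 labelled as outbred Swiss Webster (the study's methods give a mixed stock of that strain and C57BL/6), profiled by droplet-based 3' RNA sequencing in 4 libraries. The cHet libraries had the genotype Tbx1Cre/+; Kmt2d F/+; GFP F/+ and the cKO libraries the genotype Tbx1Cre/+; Kmt2d F/F; GFP F/+, with 2 libraries each. Both genotypes thus carried the Cre insertion that replaces 1 Tbx1 allele and the GFP reporter, so neither was wild type, and Kmt2d, which encodes a histone H3 lysine 4 methyltransferase, was floxed on 1 allele in cHet and on both in cKO. The dissected tissue was the pharyngeal region from the first arch onward with the heart, and since living GFP-positive cells were sorted, mesenchyme without Cre activity is not represented. Each library was a pool of 4 embryos in Rep1 and 3 embryos in Rep2, and the replicates also differed in the 10x Genomics kit (Next GEM v3.1 and GEM-X v4.1), so that kit and pool cannot be told apart between replicates.

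Contractile cells other than heart and skeletal muscle shorten through actin and non-sarcomeric myosin. In smooth muscle the genes of this apparatus are driven by serum response factor, which binds CArG boxes together with coactivators such as myocardin. Forkhead factors of the Foxf and Foxl groups are expressed in mesenchyme next to endoderm, where they act downstream of hedgehog ligands secreted by the epithelium. Ptch1, the receptor of those ligands, Hhip, a secreted-ligand trap at the cell surface, and the transcription factor Gli1 are themselves switched on by the pathway and are commonly read as its activity.

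To show what a CArG box looks like upstream of contractile genes, the stretches upstream of Myl9, a gene of the rule, Cnn2 and Vcl are printed, chosen because they hold the box, each up to the annotated start of the gene, from RefSeq promoters of build GRCm38.p6. Capitals mark the CArG box, which was searched on both strands and starts 161, 56 and 227 bases before the RefSeq start, respectively. All 3 lie on the plus strand, at chr2:156775214-156775419, chr10:79988350-79988583 and chr14:20929148-20929397.
Myl9: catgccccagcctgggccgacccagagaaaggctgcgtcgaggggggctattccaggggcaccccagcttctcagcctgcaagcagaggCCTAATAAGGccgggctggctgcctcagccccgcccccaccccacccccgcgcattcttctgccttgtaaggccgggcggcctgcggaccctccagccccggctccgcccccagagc
Cnn2: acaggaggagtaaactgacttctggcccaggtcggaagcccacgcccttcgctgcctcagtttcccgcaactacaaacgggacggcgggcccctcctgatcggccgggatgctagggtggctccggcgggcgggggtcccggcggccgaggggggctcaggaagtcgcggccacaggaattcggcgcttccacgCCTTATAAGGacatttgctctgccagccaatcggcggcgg
Vcl: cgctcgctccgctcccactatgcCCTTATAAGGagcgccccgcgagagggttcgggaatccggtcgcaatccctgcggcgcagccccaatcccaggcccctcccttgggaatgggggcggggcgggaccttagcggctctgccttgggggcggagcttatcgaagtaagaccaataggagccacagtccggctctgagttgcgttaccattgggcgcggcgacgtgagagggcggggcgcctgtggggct
The box occurred in 4 of 29 promoters found for 26 of the 31 contractile genes looked up (13.8%; Cnn2, Myl6, Myl9 and Vcl), against 535 of 32851 promoters of the same length over all genes (1.63%). No promoter sequence was matched for Tagln, Foxl1 or Adamtsl1. A match describes these letters in this window and is not a measured binding site.

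The libraries held 179454146 to 234726019 UMIs, of which 96.1% to 97.2% lay in cells kept (at least 3000 genes and at most 10% mitochondrial UMIs), except in cHet Rep1, where 37093 barcodes were deposited and 65.8% of the UMIs lay in cells kept. Pairs of libraries of the same replicate shared 12 (Rep1) and 46 (Rep2) barcodes among the cells kept, and no other pair shared any. The members' medians were 21254.5 (cHet) and 23386 (cKO) UMIs per cell in Rep1 and 22180 (cHet) and 18137.5 (cKO) in Rep2, close to those of the other cells (19463, 23534, 21581.5 and 17414). Between 4 and 14 members per library had a high doublet score, and none had over 5% hemoglobin UMIs. Summed over the members, 1906090 (cHet) and 3300279 (cKO) UMIs were available in Rep1 and 4128848 (cHet) and 3843003 (cKO) in Rep2, so that values of cHet Rep1 rest on the fewest cells and UMIs.

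The 5 genes of the rule are given first, as levels summed over the members of a library and scaled to 1000000 UMIs (CPM), first in cHet and cKO of Rep1 and then in cHet and cKO of Rep2, an order kept below. Tagln, which encodes the actin-binding protein transgelin (chr9:45929619-45936058, minus strand, build mm10 as for all gene positions here), stood at 264, 346, 677 and 525 CPM in members, against 53.8 to 123 CPM in the other cells. Myl9, the regulatory light chain of smooth muscle and non-muscle myosin (chr2:156775420-156781658, plus strand), stood at 286, 254, 349 and 302 CPM against 33.6 to 60.7. Both contractile genes were higher in the members of every library, and Tagln was highest in Rep2. Foxl1 (chr8:121127940-121130644, plus strand) stood at 43.0, 40.9, 57.2 and 69.7 CPM against 2.55 to 3.91 in the other cells, and Foxf2 (chr13:31625816-31631403, plus strand) at 51.9, 57.6, 106 and 133 CPM against 5.29 to 11.7. Adamtsl1, a secreted matrix protein related to the ADAMTS proteases without being one (chr4:85514172-86428385, plus strand), stood at 199.9, 255, 234 and 365 CPM against 14.4 to 19.7. Foxl1 was detected in 62.2% to 66.5% of members and in 0.900% to 2.85% of epithelial cells (at least 2 Epcam UMIs), at similar median depths (18636 to 26219 UMIs in the epithelial cells). Foxf2 was detected in 81.1% to 93.9% of members and in 2.63% to 4.51% of those epithelial cells. Adamtsl1 was detected in 15.1% to 21.6% of the epithelial cells. Among all other cells, Adamtsl1 was detected in 14.4% to 17.5% and Foxf2 in 8.74% to 15.2%.

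The limits of the rule cut through a continuum of cells. Of the members, 21, 22, 27 and 34 cells had exactly 2 Tagln UMIs, while 29, 35, 64 and 81 cells that met the other limits had 1. All 4 of Tagln, Myl9, Foxl1 and Foxf2 were detected in 31, 56, 103 and 113 members and 3 of them in the remaining 43, 63, 76 and 93, while 67, 91, 114 and 120 cells failed with 2 of the 4. A further 60, 58, 145 and 127 cells met every limit but had Adamtsl1 at 0. The heart muscle limit kept out 0, 0, 9 and 3 cells and the Epcam and Cdh5 limit 10, 7, 11 and 5 cells. The members lay near each other in expression space, with medians of 22.5%, 30%, 40% and 45% of the 20 nearest cells being members where 1.17% to 1.83% of all cells were. The 12 genes of the rule were left out of this comparison, but genes that vary with them were not. Among the members 8, 9, 20 and 9 cells had no member among their 20 nearest cells.

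**Figure D1:**
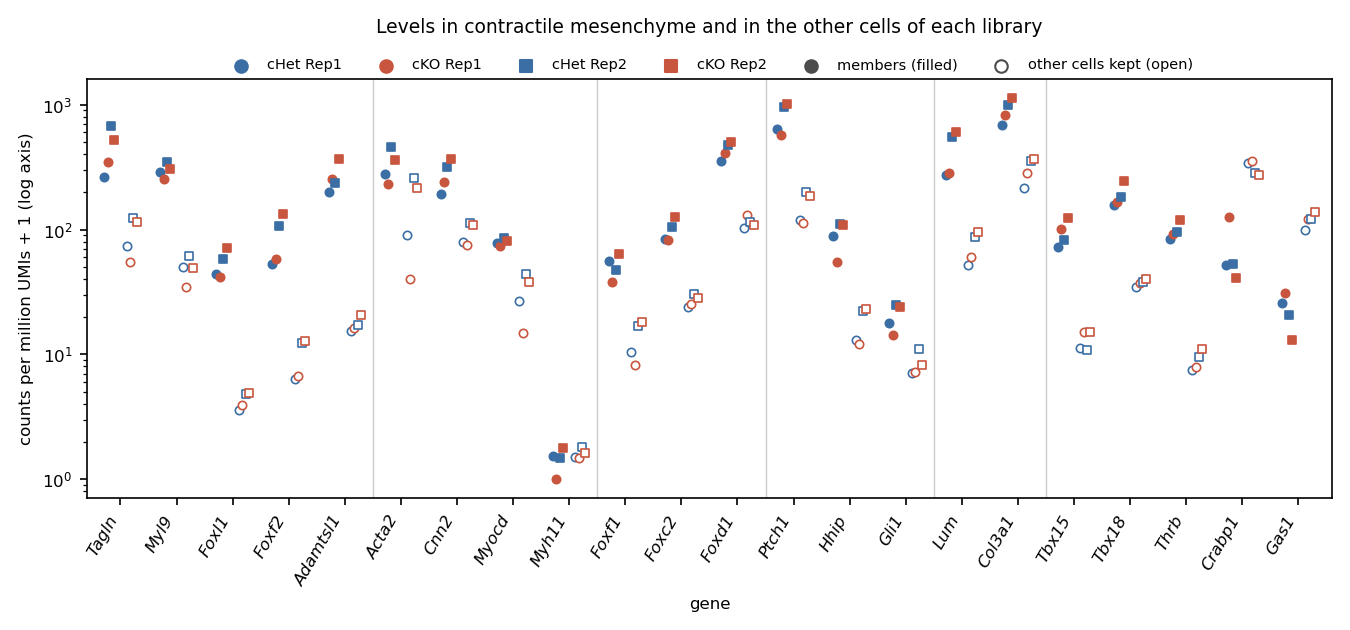
Summed level of 22 genes in the members (filled) and in the other cells (open) of each library, as CPM plus 1 on a log axis, with cHet in blue and cKO in red, Rep1 as circles and Rep2 as squares. The 5 rule genes at the left and most other genes sit higher in the members, Myh11 sits near 0 in both, and Crabp1 and Gas1 at the right sit lower in the members of every library.

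Across the 9230 genes that reached 10 CPM in members or other cells, rule genes left out, 129 genes (1.4%) were over 2-fold higher in the members of all 4 libraries and 73 (0.791%) were over 2-fold lower. By any amount, 2514 of the 9230 genes were higher and 2299 lower in the members of all 4 libraries. The count of genes over 2-fold lower was 127 with 1 CPM added in place of 5 and 131 without cKO replicate 1. Ratios are given as the mean of the 4 within-library log2 ratios with their SD, after adding 5 CPM to both levels. The contractile apparatus was higher in part. Of 24 smooth muscle contractile genes, 18 were higher in the members of all 4 libraries and 2 lower, with a median log2 ratio of 0.50 against 0.01 over all genes, but only 2, Cnn2 and Tpm2, were over 2-fold higher in every library. Cnn2, which encodes an actin-binding calponin, stood at 190.4, 238, 317 and 366 CPM in members against 74.2 to 112 CPM in the other cells (log2 ratio 1.51 ± 0.22, SD, n = 4 libraries). Tpm2, a tropomyosin of muscle and non-muscle filaments, stood at 219.8, 176, 146 and 127 CPM against 54 to 96.9 (1.10 ± 0.07). Both genes were higher in every library without overlap between members and other cells. Acta2, smooth muscle actin, stood at 278, 229.7, 453 and 363 CPM in members against 89.5, 39.2, 256 and 213 CPM in the other cells (1.39 ± 0.78), so its ratio varied with the level of the other cells. Synpo2, an actin-bundling protein, had a log2 ratio of 1.21 ± 0.29, and Vcl, which links actin to adhesion sites, of 1.09 ± 0.20.

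Myh11, Cnn1 and Actg2, genes of mature smooth muscle picked from the contractile list, were at low levels. Myh11, the heavy chain of smooth muscle myosin, stayed between 0 and 0.781 CPM in the members and at a mean of 0.604 CPM in the other cells. Cnn1 had 4.5 to 10.4 CPM in members and a mean of 5.76 CPM in the other cells, and Actg2 0.52 to 2.10 CPM. Des, the muscle intermediate filament desmin, was lower in the members (18.9, 13.3, 19.6 and 11.4 CPM, log2 ratio -0.58 ± 0.13). Of the regulators of this program, Myocd, which encodes myocardin, stood at 77.7, 73.0, 83.8 and 80.2 CPM in members against 13.8 to 43.1 CPM in the other cells (1.34 ± 0.53), in a list of 10 with a median of 0.22. Mrtfb, a myocardin-related coactivator, had a ratio of 0.53 ± 0.13, and Mef2c, a muscle transcription factor, one of -0.67 ± 0.42.

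Cells with at least 1% of their UMIs from the 5 heart muscle genes also carried Tagln, and at far higher levels. In these 445 cells Tagln stood at a mean of 2144 CPM and Acta2 at 6736 CPM over the 4 libraries, while Foxl1 was at 0.944, Foxf2 at 1.18 and Lum at 4.86 CPM. Contractile transcripts were thus also found in this muscle. The rule asked for the forkhead genes and limited the heart muscle genes, so the low Foxl1 and Foxf2 of these cells is a description only.

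Forkhead factors outside the rule were higher as well. Of 13 forkhead genes at 10 CPM, 6 were over 2-fold higher in the members of all 4 libraries, none over 2-fold lower, and the median log2 ratio was 0.93. Foxd1, a factor of stromal and facial mesenchyme, stood at 354, 413, 474 and 506 CPM against 102 to 129 CPM in the other cells (1.90 ± 0.24). Foxc2, which acts in mesenchyme and vessels, stood at 83.4, 81.2, 103 and 125 CPM against 22.9 to 29.4 (1.72 ± 0.20). Foxf1, the closest relative of Foxf2, stood at 54.6, 36.7, 46.7 and 62.7 CPM against 7.20 to 17.3 (1.68 ± 0.31), and Foxp2 had a ratio of 1.18 ± 0.15. Foxf1, Foxc2 and Foxl1 are neighbours on chromosome 8, where Foxc2 starts 28027 bases after the end of Foxf1 and Foxl1 starts 9045 bases after the end of Foxc2. Outside the rule, Foxf1 was detected in 50.3% to 58.1% of members and 2.85% to 5.01% of epithelial cells, and Foxc2 in 79.7% to 85.5% and 7.80% to 12.8%.

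A transcript next to Foxf2 followed it. The long noncoding RNA 1700018A04Rik is read in the opposite direction and starts 24 bases from the start of Foxf2 on chromosome 13. It stood at 66.6, 81.8, 84.0 and 121 CPM in members against 6.32 to 10.5 CPM in the other cells (log2 ratio 2.79 ± 0.18), the next highest ratio after Thrb among genes outside the rule that met the detection limit of 10% of members in every library. The 250 bases upstream of Foxf2, which also hold the start of 1700018A04Rik, lie on the plus strand at chr13:31625566-31625815 of GRCm38.p6. They hold no CArG box and are printed without capitals.
Foxf2: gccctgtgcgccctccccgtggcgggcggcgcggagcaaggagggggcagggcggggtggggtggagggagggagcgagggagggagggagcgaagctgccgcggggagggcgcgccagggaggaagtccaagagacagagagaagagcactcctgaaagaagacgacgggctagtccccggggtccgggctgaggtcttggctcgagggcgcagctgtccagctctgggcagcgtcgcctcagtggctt

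The hedgehog pathway divided by role. Ptch1, the ligand receptor, stood at 639.5, 572, 956 and 1017 CPM in members against 118, 111, 199.7 and 185 CPM in the other cells (2.34 ± 0.09). Hhip, which binds and holds the ligands, stood at 87.1, 54.2, 109.7 and 107 CPM against 11.0 to 21.9 (2.13 ± 0.23). Gli1, the transcription factor induced by the pathway, stood at 16.8, 13.3, 24.0 and 23.2 CPM against 6.10 to 10.0 (0.96 ± 0.20). These targets were higher in the members of every library. The coreceptors Gas1 and Cdon went the other way. Gas1 stood at 24.7, 30.0, 19.6 and 12 CPM against 98.6 to 137 (-2.26 ± 0.59), and Cdon had a ratio of -1.76 ± 0.41. Of the 12 pathway genes 2 were over 2-fold higher and 2 over 2-fold lower in every library, and the median was -0.02.

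Matrix genes were higher in part. Of 33 at 10 CPM, 10 were over 2-fold higher in all 4 libraries, none over 2-fold lower, and the median log2 ratio was 0.67. Lum, a collagen-binding proteoglycan, stood at 272, 284, 556 and 602 CPM in members against 51.4 to 94.1 CPM in the other cells (2.43 ± 0.23). Col3a1, a fibrillar collagen of soft tissue, stood at 687, 824, 1003 and 1134 CPM against 215 to 366 (1.58 ± 0.07). Lum was higher in Rep2 than in Rep1 in members and other cells alike. Has2, the main hyaluronan synthase of the embryo, had a ratio of 1.94 ± 0.11, and Dcn, a relative of Lum, of 1.77 ± 0.25. Fn1 (-0.32 ± 0.23) and Tnc (-1.03 ± 0.56), glycoproteins of the provisional matrix, had the lowest ratios of the list. Of 7 ADAMTS genes, the metalloprotease gene Adamts12 was over 2-fold higher (1.64 ± 0.19) and Adamts9 had the lowest ratio (-1.50 ± 0.38).

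**Figure D2:**
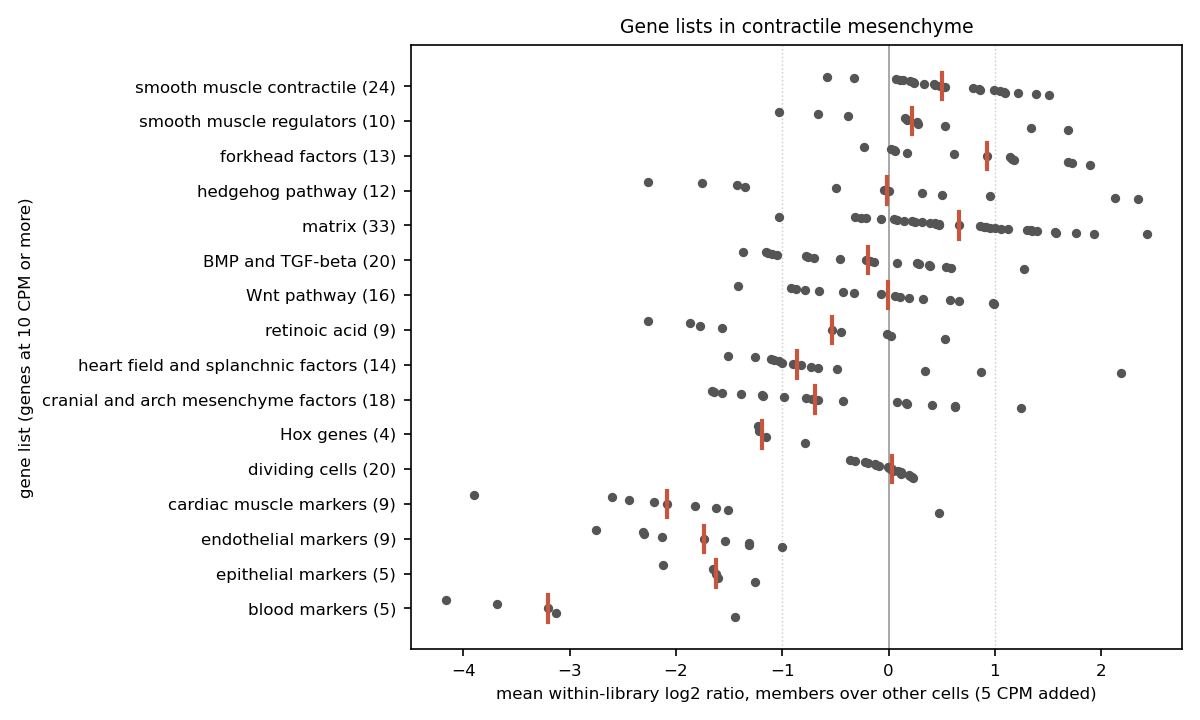
Mean within-library log2 ratio of members over other cells (5 CPM added) for every gene at 10 CPM in 16 fixed lists, 1 point per gene, with the median of the list as a red bar and dotted lines at a 2-fold difference. Forkhead and matrix genes lie mostly to the right of 0, hedgehog genes lie on both sides, dividing-cell genes lie near 0, and markers of blood, heart muscle, endothelium and epithelium lie to the left.

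Over all genes outside the rule, the leading gene was Thrb, a thyroid hormone receptor, with 82.9, 91.2, 95.4 and 118 CPM in members against 6.53 to 9.94 CPM in the other cells (2.97 ± 0.07). Tbx15, a T-box factor of mesenchyme, stood at 70.8, 99.7, 81.6 and 122 CPM against 9.84 to 14.2 (2.51 ± 0.18). Tbx18, a related factor also used by epicardium and somites, stood at 156, 164, 179.9 and 244 CPM against 33.3 to 39.1 (2.19 ± 0.21). Both T-box genes were higher in every library, and Tbx1 itself, which is present on 1 intact allele in all cells, stood at 143, 156, 107 and 119 CPM against 59.1 to 77.1 (0.87 ± 0.15). The 25 genes with the highest ratios ranged from 2.01 to 2.97 and also held Sim1 (2.49 ± 0.15), a factor of the basic helix-loop-helix class, Sparcl1 (2.47 ± 0.17), a secreted matrix glycoprotein, Cadm2 (2.24 ± 0.25), an adhesion molecule, Ccn2 (2.08 ± 0.57), a secreted factor of connective tissue, and Vtn (2.19 ± 0.20), which encodes vitronectin. Il1rapl1, Cobl, Cadps2, Gm35330, Kcnc2, Trib2, Gm30624, Slc25a21, Spon1, Pltp, Cbr3, Gm5127 and Anxa3 completed the 25 together with Ptch1, Hhip, Lum and 1700018A04Rik. The lowest ratios were those of Kdr (-2.76 ± 0.39), an endothelial receptor, Pcdh17 (-2.52 ± 0.50), Crabp1 (-2.26 ± 0.54), a retinoic acid binding protein, and Gas1, followed by Tnni1, Spint2, Nebl, Trpm3, Ppp2r2b and Tubb3 (-1.98 ± 0.74).

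In BMP and TGF-beta signalling, the receptor Bmpr1b was higher (279 CPM on average over members of the 4 libraries, 113 CPM over other cells, 1.27 ± 0.06). The ligand Bmp4 and the antagonist Grem1 were lower (-1.15 ± 0.44 and -1.37 ± 0.72). Of 20 genes in that list 6 were higher and 10 lower in all libraries. Over all 9230 genes 2514 were higher and 2299 lower, so the count of higher genes lay near the share of all genes. In the Wnt pathway, the receptor Fzd1 (0.99 ± 0.12) and the R-spondin Rspo3 (0.58 ± 0.05) were higher and the transcription factor Lef1 lower (-1.42 ± 0.63), and none of 16 genes was over 2-fold different in all 4 libraries. Of 9 retinoic acid genes, 4 were over 2-fold lower and the median was -0.53. Among cranial and arch mesenchyme factors, Twist2, a repressor of differentiation in mesenchyme, was higher (1.24 ± 0.19) and Msx1 lower (-1.66 ± 0.37), with a median of -0.69 over 18 genes. The 4 Hox genes at 10 CPM were lower in all libraries (median -1.19), and of the heart field and splanchnic factors 10 of 14 were lower, among them Isl1 (-1.51 ± 1.26). Pax9 (1.52 ± 0.12), which marks pharyngeal and sclerotome mesenchyme, and Sox9 (1.47 ± 0.13), the cartilage regulator, were higher, while the sclerotome gene Meox1 was lower (-1.38 ± 0.23) and Nkx3-2 and Pax1 each stayed at or below 1.21 CPM. The 20 dividing-cell genes had a median of 0.03 and 12 KMT2 complex genes one of -0.02.

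Markers of most other cell types summed to less in the members than in the other cells. The 10 endothelial markers summed to 34.6 to 66.8 CPM in members and 200 to 310 CPM in the other cells, with Tie1, Esam, Cldn5 and Tek at 0 in at least 1 library. The 10 epithelial markers summed to 18.0 to 24.9 CPM against 86.0 to 181, and Krt5 was at 0 in all libraries. The 12 blood markers summed to 40.9, 13.6, 1.70 and 5.98 CPM against 87.1 to 885 CPM, highest in the members of cHet Rep1, and Ptprc, Csf1r, C1qa, Hbb-bs and Hbb-bt were at 0 in all 4. Of the cardiac markers other than those of the rule, 6 of 9 were over 2-fold lower, Nppa was at 0 in all libraries, and Atp2a2, a calcium pump of many cell types, had the highest ratio (0.48). The 8 neuron markers summed to 13.1, 56.4, 18.9 and 12.5 CPM against 96.7 to 168, highest in the members of cKO Rep1, where 11.8% of members had a high doublet score. There, 1 cell held all UMIs of Neurod1 (13.0 CPM, against 0.242 to 1.05 CPM in the other libraries) and 57.4% of those of Elavl4 (18.5 CPM). Neural crest markers summed to 2.91 to 7.27 CPM, with Foxd3 and Tfap2b at 0, and the skeletal muscle factors Myod1 and Myog were at 0. Of the mural cell markers Pdgfrb was higher (73.9 CPM against 41.0, 0.77 ± 0.13), Notch3 had a ratio of 0.17 ± 0.21, Rgs5 one of -1.30 ± 1.17, and Higd1b was at 0.

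The members were not uniform. Zic1, a zinc finger transcription factor, was detected in 286 of them (in Rep1 30 of 74 in cHet and 79 of 119 in cKO, and in Rep2 74 of 179 in cHet and 103 of 206 in cKO). As a description with no test, since the groups were formed after their values were seen, members with Zic1 had a mean of 298 CPM Tagln, 225 CPM Acta2 and 57.4 CPM Hhip over the 4 libraries, against 612, 459 and 122 CPM in members without it. Thrb (133 against 62.5 CPM) and the adhesion gene Alcam (221 against 99.3 CPM) were higher with Zic1, and the R-spondin gene Rspo2 (11.5 against 54.4 CPM) and the homeobox gene Meis2 (229.6 against 510 CPM) were higher without it. Foxl1 (53.1 and 52.6 CPM) and Foxf2 (88.3 and 87.2 CPM) had nearly equal means. In the 2571 other cells in which both Zic1 and Msx1 were detected, Tagln was at a mean of 100.1, Foxl1 at 0.746 and Lum at 19.9 CPM.

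Another group of members carried factors of the heart fields or of splanchnic and foregut mesenchyme, called heart-field factors here although Barx1 and Nkx2-3 are better known from arch, foregut and pharynx. At least 1 UMI of Gata4, Gata5, Hand1, Hand2, Barx1 or Nkx2-3 was found in 15 members of cHet and 8 of cKO in Rep1 and in 9 of each in Rep2, which is 20.3%, 6.72%, 5.03% and 4.37% of the members. This group, also formed after seeing the values and given without a test, had a mean of 118 CPM of Isl1 against 9.39 CPM in the other members, 42.8 against 4.21 CPM of Gata6, 22.4 against 0.649 CPM of Tbx5 and 72.2 against 23.6 CPM of Rspo2. Foxl1 was lower in it (24.7 against 57.6 CPM) in every library, as was Thrb (44.4 against 108 CPM). Tbx15 was lower on average (46.4 against 105 CPM) and in 3 libraries, but not in cHet Rep2 (98.9 against 80.5 CPM). Its cells were also larger in 3 libraries, with medians of 30634 (cHet) and 54542 (cKO) UMIs against 19109 and 22579 in Rep1 and of 19721 against 18105 in cKO Rep2, but not in cHet Rep2 (21710 against 22222). Hand2, the most frequent of these factors, was detected in 13.5%, 4.2%, 3.35% and 2.43% of members and in 7.38%, 6.77%, 5.36% and 4.35% of epithelial cells, so outside cHet Rep1 its share was no higher than in epithelium. In cHet Rep1, 65.8% of the UMIs lay in cells kept, against 96.1% to 97.2% in the other libraries, and ambient RNA was not removed. A deeper cell more readily shows 1 UMI of any factor, and the part of depth and of free RNA in this group was not tested.

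The 390 cells that met every limit except Adamtsl1 resembled the members in some genes and not in others. Tagln (646 CPM), Acta2 (261 CPM), Foxf1 (44.8 CPM), Foxf2 (60.1 CPM) and Lum (254 CPM) were high in them as means over the 4 libraries. Tbx15 stood at 23.9, 18.7, 10.4 and 18.6 CPM and Thrb at 8.96, 17.5, 6.90 and 12 CPM, both near the other cells and without overlap with the members of any library. Tbx18 (94.4 CPM) and Ptch1 (413 CPM) lay between members and other cells. The levels of Thrb and Tbx15 given above therefore hold for the rule with Adamtsl1, and not for all cells with Tagln and Foxf2.

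In Rep1 members made up 1.19% of the cells kept in cHet (74 of 6238, 95% Wilson interval 0.946% to 1.49%), and 1.79% in cKO (119 of 6660, 1.5% to 2.13%), and in Rep2 1.84% in cHet (179 of 9743, 1.59% to 2.12%) and 1.64% in cKO (206 of 12587, 1.43% to 1.87%). Counting error is all that these intervals hold. The share was higher in cKO in Rep1 (by 0.600 percentage points) and lower in Rep2 (by -0.201 points), and the genotypes overlapped. The mean was 1.51% ± 0.46 in cHet and 1.71% ± 0.11 in cKO (SD, n = 2 libraries each), and a two-sided exact permutation test gave p = 1, where 0.333 is the smallest value that 2 against 2 libraries allow. With Adamtsl1 not required, the difference turned to -0.0852 points. Cells with at least 10000 UMIs were also thinned to that number, which takes away the difference in depth, and shallower cells were left out. The shares of the 5792, 6505, 9419 and 11862 cells left were 0.449%, 0.646%, 0.817% and 0.953%. In that setting the share was higher in cKO in both replicates (by 0.197 and 0.135 points), so the direction in Rep2 turned. No difference in share between the genotypes was detectable with these libraries.

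**Figure D3:**
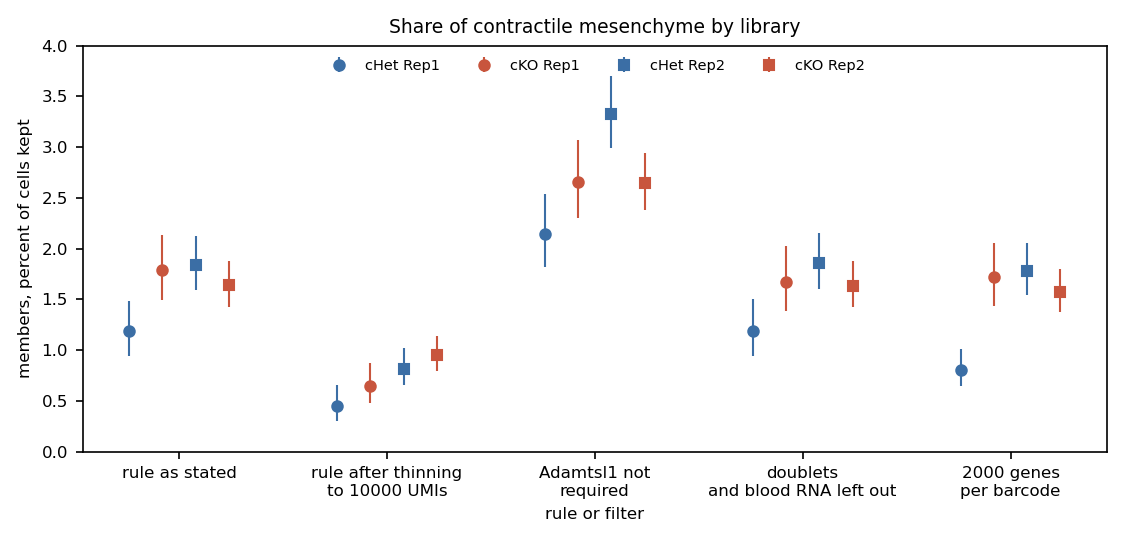
Share of the cells kept that were members, in percent, for each library under the rule as stated and under 4 other settings, with 95% Wilson intervals as vertical bars, cHet in blue and cKO in red. Under the rule as stated cHet Rep1 lies lowest at 1.19% and the other 3 libraries lie between 1.64% and 1.84%, and in every setting but thinning the replicates order the genotypes in opposite ways.

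The comparison of genotypes, which asks what loss of the remaining Kmt2d allele changed, was made on counts summed over the members of each library, with edgeR's quasi-likelihood test and the replicate as a block. The libraries are pools of embryos, so p-values do not measure the spread between embryos. With the block they rest on how far the changes of the 2 replicates differ, with variance partly shared across genes. Of 11604 genes tested, 54 passed a Benjamini-Hochberg adjusted p of 0.05 (0.465%), 26 higher in cKO (0.224%) and 28 lower (0.241%), and 736 had an unadjusted p under 0.05. In the other cells, 0 of 20207 genes passed edgeR's test at the same threshold (0.0%), with 1098 at an unadjusted p under 0.05. DESeq2 with the same design called 0 of the genes in members, with 69 at an unadjusted p under 0.05, and edgeR without the block also called 0, so the 54 calls depend on the test and the block. Thinning every member to 5000 UMIs left 4 calls. The fits without 1 library also had no block, so a changed value or a lost call there cannot be laid to the library alone. Kmt2d itself stood at 16.8, 15.2, 18.4 and 16.1 CPM in the members (log2 change -0.16 ± 0.23, SE, adjusted p = 0.997). A 3' tag need not lie in the part that Cre removes, so this level does not check the deletion.

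The rule acted on the UMIs of Tagln, Myl9, Foxl1, Foxf2 and Adamtsl1 in both genotypes, so their changes among the members are given as a description with no test. Tagln had a log2 change of -0.02 ± 0.10, Myl9 of -0.18 ± 0.09, Foxl1 of 0.17 ± 0.14 Foxf2 of 0.28 ± 0.12 and Adamtsl1 of 0.53 ± 0.09 (SE), and Adamtsl1 is among the 54 calls. None of 26 contractile genes tested passed, nor any of 14 forkhead, 12 hedgehog, 35 matrix, 25 BMP and TGF-beta, 20 dividing-cell or 12 KMT2 complex genes. With 0.465% called over all genes, lists of this size would hold few calls or none. At an unadjusted p under 0.05, which 3.13% of all genes tested reached with a lower and 3.21% with a higher level in cKO, 9 BMP and TGF-beta genes were lower and 1 higher, 4 hedgehog genes lower and none higher, and 4 contractile genes lower and 1 higher. Bmp4 had the smallest p of the BMP and TGF-beta genes, at 26.2, 11.2, 14.8 and 8.59 CPM (log2 change -0.99 ± 0.25, edgeR adjusted p = 0.0548), and Gli3, a hedgehog effector, that of the hedgehog genes, at 93.9, 79.1, 80.9 and 53.9 CPM (-0.42 ± 0.12, edgeR adjusted p = 0.132). Without the cells with a heart-field factor, 1 of these 9, 2 of the 4 hedgehog and all 4 of the contractile genes were still lower at that p. In that setting 8 of 26 contractile genes were lower and none higher. Of 34 matrix genes 7 were lower and none higher, where 3 and 6 of 35 were with all members. Of the BMP and TGF-beta genes 1 was lower and 2 higher, and of all 11436 genes 309 and 289. Acta2 was lower in cKO within both replicates (278 and 229.7 CPM in Rep1, 453 and 363 CPM in Rep2), with a log2 change of -0.29 ± 0.09 and an edgeR adjusted p of 0.158. It passed in 4 other settings, with -0.49 without the cells with a heart-field factor, -0.41 without the leading cell of each gene, -0.33 without the cells with Pf4 and -0.40 without very large barcodes, while without single libraries it ranged from -0.51 to -0.07 and did not pass. Ptch1 had a log2 change of -0.02 ± 0.09 (edgeR adjusted p = 0.997).

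Rspo2, which encodes a secreted R-spondin that amplifies Wnt signals, fell in cKO with the smallest p of all genes tested. It stood at 72.4 and 13.9 CPM in cHet and cKO of Rep1 and at 34.4 and 15.6 CPM in Rep2, with both cKO libraries below both cHet libraries. Such separation is a description here and below, since the genes were called on the same libraries. Its share over all genes is not given. The log2 change was -1.73 ± 0.20 (SE, edgeR adjusted p = 2.99e-07), -2.34 in Rep1 and -1.09 in Rep2. In the other cells its log2 change was 0.04, and the difference between members and other cells was itself called (-1.74). Rspo2 was detected in 28.4%, 18.5%, 23.5% and 16.5% of members and in 22.0%, 20.8%, 23.6% and 17.8% of epithelial cells. Among all other cells Rspo2 was detected in 9.10%, 9.34%, 9.12% and 9.04%, below the members of every library. Only in cHet Rep1 was the share of members above that in epithelium. In cHet Rep1, 1 cell with 55994 UMIs and a high doublet score held 63 of the 138 Rspo2 UMIs (45.7%). With the leading cell of each gene left out in every library the change was -1.42, and without the cells with a heart-field factor it was -1.32 (edgeR adjusted p = 8.13e-06), and Rspo2 passed under both settings, which were chosen after seeing the data. With Adamtsl1 not required of the cells it was -0.89 and also passed, and without cHet replicate 1 it was -1.08 and did not. Rspo2 and the other genes named beyond the 10 largest changes in each direction (Osr1, Gata6, Alcam, Zic1, Tbx15, Cxcl12 and Dlg2) were chosen after their values were seen.

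Genes of heart muscle and the heart fields made up part of the lower group. Ryr2, the calcium release channel of heart muscle, stood at 26.2 and 2.73 CPM in Rep1 and 6.78 and 1.56 CPM in Rep2 (log2 change -2.81 ± 0.42). Tnni1, the embryonic troponin I, stood at 26.2, 3.03, 4.84 and 1.56 CPM (-2.59 ± 0.43). Tbx5, a T-box factor of the heart and forelimb, stood at 11.5, 1.82, 3.63 and 1.30 CPM (-2.14 ± 0.53). In each, both cKO libraries lay below both cHet libraries and cHet Rep1 stood highest. Few cells had a UMI of them: 32 of 578 members had Ryr2, 28 Tnni1 and 17 Tbx5. In epithelial cells, at similar median depths, Ryr2 was detected more often than in members (11.2% to 18.3% against 2.91% to 9.46%), and Tnni1 in 9.23%, 6.77%, 6.21% and 3.15% against 14.9%, 2.52%, 5.59% and 1.94% of members. Tbx5 was detected in 0.987% to 1.85% of epithelial cells and in 9.46%, 0.840%, 3.35% and 1.46% of members. Only in cHet Rep1 was the share of members with Tnni1 above that in epithelium, and no share of members with Ryr2 was. Without cHet replicate 1, where 65.8% of the UMIs lay in cells kept, the log2 change was -1.51 for Ryr2, -0.93 for Tnni1 and -1.07 for Tbx5, and none passed. Myl7, which the rule limited, is among the calls as a description (-2.0 ± 0.46, and -0.38 without cHet replicate 1). Osr1, a splanchnic mesoderm factor, fell by 1.75 on the log2 scale and Gata6 by 1.36. Of 16 heart field and splanchnic factors tested 3 were called lower, where 0.241% of all genes were, and none higher. At an unadjusted edgeR p under 0.05, 10 of the 16 were lower and 1 higher, where 3.13% and 3.21% of all genes were. Without the cells with a heart-field factor, 1 of 13 tested was lower and 3 higher. Tbx5, Ryr2 and Myl7 met the count filter only through the cHet libraries, where they were high, so their calls are descriptions. The share of members with a heart-field factor was 20.3% in cHet and 6.72% in cKO of Rep1, and 5.03% in cHet and 4.37% in cKO of Rep2. With the cells with such a factor left out the log2 change was -0.21 for Osr1 and -0.16 for Gata6, and neither passed, while Ryr2, Tnni1 and Tbx5 fell under the count filter and were not tested. With Adamtsl1 not required of the cells, Ryr2 had a log2 change of -0.12, Tnni1 of -0.94, Tbx5 of -0.53 and Myl7 of -0.40, and none of them passed. In cHet Rep1 the 15 members with a heart-field factor held 49 of 50 Ryr2, 48 of 50 Tnni1 and 22 of 22 Tbx5 UMIs. In cHet Rep2 the 9 such members held 5 of 28, 14 of 20 and 6 of 15. The 8 in cKO Rep1 held 6 of 9, 9 of 10 and 6 of 6. The 9 in cKO Rep2 held 0 of 6, 4 of 6 and 4 of 5. Whether the fall lies in fewer such cells or in lower levels per cell was not tested.

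The levels of some lower genes lay in single cells. Rasgrp2 and Runx1, known from blood cells and platelets, stood at 25.2 and 19.4 CPM in cHet Rep1 and at 1.30 to 4.60 CPM in the other libraries. A single cHet Rep1 cell of 78151 UMIs held 72.9% of the Rasgrp2 and 64.9% of the Runx1 UMIs there, together with all 384 UMIs of the platelet gene Pf4 in that library's members, and it was not marked by the doublet score. Without the 2 members that had a Pf4 UMI, which was decided after seeing the data, the log2 change was -1.10 for Rasgrp2 and -1.24 for Runx1 and neither passed (edgeR adjusted p = 0.760 and 0.468). Across all calls, 49 of the 54 remained without these 2 cells, among 72 called. Tafa1 (-2.21 ± 0.51), Ccn4 (-2.46 ± 0.60), Rgs5 (-1.90 ± 0.45) and 1010001N08Rik (-2.52 ± 0.58) completed the 10 largest falls, each in 13 to 27 of the members. Runx1, Ccn4 and 1010001N08Rik met the count filter only through the cHet libraries, where they were high, so their calls are descriptions. With Adamtsl1 not required of the cells, the change of Rgs5 was -0.11 and that of 1010001N08Rik -0.35. Tafa1 (7.87, 4.24, 10.2 and 0.260 CPM) and Rgs5 (13.1, 6.67, 8.23 and 0.260 CPM) each had 1 UMI in cKO Rep2, and without cKO replicate 2 their changes were -0.95 and -0.53 and did not pass. Dlg2, a synaptic scaffold protein, stood at 47.7, 5.15, 5.57 and 6.51 CPM (-1.79), and in cHet Rep1 the cell with Pf4 held 51.6% of its UMIs. Without the cells with Pf4 its change was -1.06 and did not pass, and with the leading cell of each gene left out it was -1.63 and passed.

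**Figure D4:**
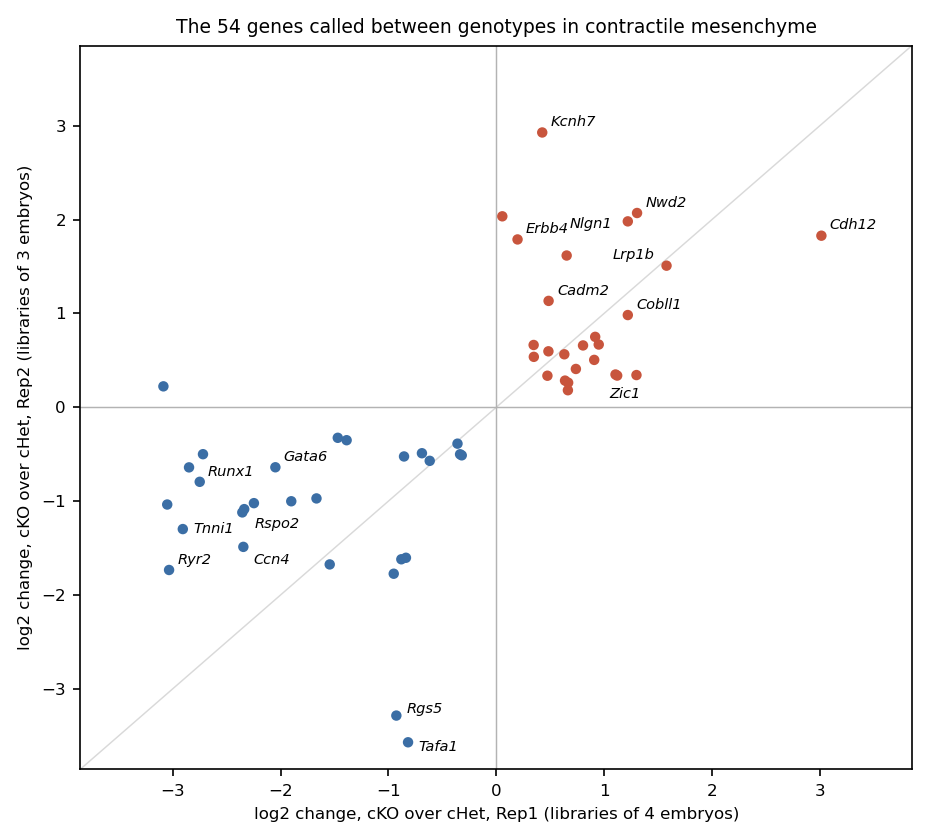
Log2 change of cKO over cHet in Rep1 (x axis) and in Rep2 (y axis) for the 54 genes called in the members, from log2 CPM with a prior count of 2, lower genes in blue and higher genes in red, with a grey line of equal change. All genes but Dlg2 (-3.09 in Rep1 and 0.22 in Rep2) lie in the quadrants of equal sign, and most lower genes changed more in Rep1.

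The 10 largest rises in cKO were those of Cdh12, Pcdh11x, Mdga2, Cobll1, Kcnh7, Nwd2, Nlgn1, Lrp1b, Erbb4 and Cadm2. Cadm2, an adhesion molecule also among the leading genes of the members, stood at 150.1 and 211 CPM in Rep1 and 119 and 259 CPM in Rep2 (log2 change 0.85 ± 0.10, edgeR adjusted p = 6.58e-07). Lrp1b, a large lipoprotein receptor, stood at 6.30, 20, 8.96 and 26.3 CPM (1.60 ± 0.25), and Nlgn1, a neuroligin, at 5.77, 14.2, 2.66 and 12.2 CPM (1.78 ± 0.37). In each of these 3 genes both cKO libraries stood above both cHet libraries. Neuron markers were highest in the members of cKO Rep1, and with doublets left out the changes were 0.85 for Cadm2, 1.74 for Lrp1b and 2.02 for Nlgn1. Cdh12, a cadherin, had the largest change (3.02 ± 0.75) but was found in 11 members, with 0 CPM in cHet Rep1, so that its fitted change depends on the prior count. Cdh12 met the count filter only through the cKO libraries, where it was high, so its call is a description. Erbb4, a neuregulin receptor, stood at 109, 125, 29.3 and 101 CPM (0.95 ± 0.16), and its rise came mostly from a low cHet Rep2 (0.20 in Rep1 and 1.79 in Rep2). Without cHet replicate 2 it was -0.06. Pcdh11x, Mdga2, Cobll1, Kcnh7 and Nwd2 rose by between 1.12 and 2.25 on the log2 scale. In cKO Rep2, 1 cell held 35 of the 65 Kcnh7 UMIs, and the change of Kcnh7 went from 2.10 to 0.35 with doublets left out and to 0.31 without the cells with a heart-field factor. For Mdga2, 1 cell of cKO Rep2 held 39.6% of the UMIs, and the change went from 1.19 to 0.44 with doublets left out. None of these 3 values passed. Mdga2 stood at 22.0, 23.0, 8.48 and 36.2 CPM, so its rise lay in Rep2, and without cHet replicate 2 it was 0.27 and did not pass.

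Zic1, Alcam, Tbx15 and Cxcl12 rose by less. Zic1 stood at 36.7 and 80.9 CPM in Rep1 and 49.7 and 61.9 CPM in Rep2 (0.67 ± 0.14). Cells with a Zic1 UMI were a larger share of the members in the cKO library of both replicates (66.4% against 40.5% in Rep1, 50% against 41.3% in Rep2). They were also a larger share of the other cells in cKO (22.7% against 15.8% in Rep1, 17.2% against 15.35% in Rep2). Among epithelial cells their share was 2.26% to 8.22%. Alcam, which was higher in the members with Zic1, stood at 118, 184, 140.5 and 205 CPM (0.60 ± 0.09), and Tbx15 at 70.8, 99.7, 81.6 and 122 CPM (0.56 ± 0.11). In Zic1, Alcam and Tbx15 both cKO libraries lay above both cHet libraries. Cxcl12, a chemokine found in 571 members, stood at 232, 325, 358 and 445 CPM (0.40 ± 0.09), with the replicates further apart than the genotypes. All 4 passed edgeR's test, but not in every setting. With doublets left out Alcam (0.36) and Zic1 (0.71) did not pass, without the cells with a heart-field factor Zic1 (0.49) and Tbx15 (0.42) did not, and with Adamtsl1 not required Zic1 (0.75), Tbx15 (0.64) and Cxcl12 (0.31) did not. In cKO Rep1, 1 cell held 112 of the 607 Alcam UMIs. The log2 changes of the other cells were 0.51 for Zic1, 0.67 for Alcam, 0.52 for Tbx15 and 0.09 for Cxcl12. The rise of Zic1, Alcam and Tbx15 was not called different from that in the other cells, while that of Cxcl12 was (difference 0.35).

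Whether the genotype change of the members differed from that of the other cells was tested as an interaction term of edgeR's fit that held each library as a block. It was called for 80 of 18749 genes (0.427%), and for 29 of the 54 genes called in the members, 23 of the 28 lower and 6 of the 26 higher. Both tests use the same member counts, so this overlap follows in part from how the 54 were chosen and is a description. In 48 of the 54 the change had the same sign in the other cells, and 30 had an unadjusted p under 0.05 there. Acta2 had a log2 change of -0.69 in the other cells and of -0.29 in the members, and this difference of 0.36 was called, but not without the cells with a heart-field factor (0.18), the leading cell of each gene (0.23) or with DESeq2. Among the other cells, those with at least 1% heart muscle UMIs were 83 of 6164 in cHet and 30 of 6541 in cKO of Rep1. In Rep2 they were 154 of 9564 and 178 of 12381. Their part in the Acta2 difference was not tested. Of 29 contractile genes, Acta2, Cnn2 (0.34) and Myl6 (0.17) were called. The 16 called genes that were detected in under 10% of the members, 13 of them lower in cKO, rest on few cells in each library.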

How the data were processed

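Members and gene lists were chosen with earlier results of these data known. The authors aligned reads to mm10 with Cell Ranger (8.0.1 in the submitters' processing notes, 7.0.1 in the Rep1 file headers) and deposited raw UMI counts per gene and barcode. The removal of ambient RNA and the integration that the study describes are not in these counts. Barcodes with at least 3000 genes and at most 10% mitochondrial UMIs were kept. Counts were summed per library over the members and over the other cells (1906090 to 4128848 UMIs in members), and CPM scale these sums to 1000000. Doublets were not removed in the main analysis. As an alternative, barcodes were left out by Scrublet score (scanpy 1.11.5) down to the share expected for the kit, since its own threshold marked 0.0321% and 0.120% of cells in Rep1.

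Genotypes were compared with edgeR 4.0.16 in R 4.3.3 (filterByExpr, TMM, quasi-likelihood test, replicate block, Benjamini-Hochberg adjustment) and, as an alternative, DESeq2 1.42.0. The numbers mark the kit per the labels, and libraries of a replicate deviated together from the genotype means (r = 0.694 over 11604 genes). The scripts were tested on simulated data. Named genes were the rule genes, Kmt2d and Tbx1, the 25 highest and 10 lowest ratios with the same sign in all 4 libraries and detected in at least 10% of cells, the 10 largest called changes in each direction, and of each of 28 lists the 4 highest and 2 lowest ratios at 10 CPM, of which the text gives the most relevant. Positions are from GENCODE M21 (32158 of 32285 features matched). Ratios add 5 CPM. A few genes are not reported here.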

Additional observations from a re-analysis of the deposited data

Results flagged for a closer look

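The genotype change in the members was tested against that in the other cells of the same libraries, and 80 of 18749 genes differed in edgeR's test with Benjamini-Hochberg adjustment. The values below are the log2 change in members minus the log2 change in other cells, for genes whose genotype change is given above and the other genes of the contractile, hedgehog and BMP and TGF-beta lists that were called. They were negative for Ryr2 (-2.32), 1010001N08Rik (-2.17), Tbx5 (-2.16), Runx1 (-2.15), Tafa1 (-1.89), Tnni1 (-1.87), Rasgrp2 (-1.76), Rspo2 (-1.74), Osr1 (-1.47), Rgs5 (-1.40), Dlg2 (-1.14), Gli3 (-0.42) and Id2 (-0.31), a target of BMP signals. They were positive for Myl6 (0.17), Cnn2 (0.34), Cxcl12 (0.35), Acta2 (0.36), Erbb4 (1.06), Cobll1 (1.10), Lrp1b (1.21) and Kcnh7 (2.23). Without the cells with Pf4 the values were -0.44 for Rasgrp2, -1.35 for Runx1 and -0.34 for Dlg2, and none of these passed. Without the cells with a heart-field factor 8 of the 21 passed. Those that did not were Osr1 (-0.02), Ryr2 (-1.33), Tnni1 (-1.30), Tbx5 (-3.16), Gli3 (-0.23), Myl6 (0.10), Acta2 (0.18), Cnn2 (0.25), Kcnh7 (0.37), Cobll1 (1.01) and, with the sign turned, Rgs5, Id2 and 1010001N08Rik. Without the leading cell of each gene 10 of the 21 passed. After thinning to 5000 UMIs per cell 1 of the 21, Erbb4, passed, with Cobll1 at 0.41 and Tnni1 at -0.39. Ryr2, Tbx5, Tnni1, Tafa1, Rgs5 and 1010001N08Rik were found in 13 to 32 members. DESeq2 called 2 of the 80 genes, Erbb4 and Rspo2.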

How the results depend on the processing

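The 54 genotype calls in members became 0 with DESeq2 (69 at an unadjusted p under 0.05) and 0 with no replicate block (73). They became 87 with no filter on low counts, 4 after thinning to 5000 UMIs per cell (Cadm2, Erbb4, Gria4 and Rspo2), 10 with Adamtsl1 not required (9 shared) and 35 without the cells with a heart-field factor (21 shared). They were 50 without doublets (29 shared), 40 without very large barcodes (31 shared), 57 without the leading cell of each gene (39 shared) and 72 without cells with Pf4 (49 shared). The last 2 settings and the heart-field one were chosen after seeing the data. Fits without single libraries also had no replicate block, and the lone library of a genotype is assumed to vary like the others. Library and block thus cannot be told apart in them. Of the 29 called genes whose change is given above, 27 kept their direction in every setting that tested them. The exceptions were Erbb4, which ranged from -0.0592 (without cHet replicate 2) to 2.10 over the settings without single libraries, and Dlg2, which ranged from -3.16 to 0.194 (without cHet replicate 1). Direction hides losses of size. With Adamtsl1 not required, 11 of the 29 changes shrank to under 50% of their size, among them Ryr2 (-2.81 to -0.12), Rgs5 (-1.90 to -0.11) and Myl7 (-2.0 to -0.40). Without cHet replicate 1, 5 did (Dlg2, Myl7 at -0.38, Rasgrp2 at -0.014, Runx1 at -0.81 and Tnni1 at -0.93), without cHet replicate 2, 3 did (Erbb4, Mdga2 at 0.27 and Kcnh7 at 1.04), without cKO replicate 1, Erbb4 did (0.38), and without cKO replicate 2, 2 did (Tafa1 at -0.95 and Rgs5 at -0.53). Other changes shrank by over 1.5 times, though not to under 50%. Without cHet replicate 1 these were Rspo2 (-1.08), Ryr2 (-1.51), Tbx5 (-1.07), Osr1 (-1.13), Gata6 (-0.82), Ccn4 (-1.61), Rgs5 (-1.08), 1010001N08Rik (-1.46) and Cxcl12 (0.23). They were Cadm2 (0.50) and Nlgn1 (1.06) without cHet replicate 2, and Zic1 (0.41) without cKO replicate 1. Without cKO replicate 2 they were Kcnh7 (1.29) and Mdga2 (0.76). Some changes grew by over 1.5 times. Among them were Cdh12 (6.61) and Nwd2 (3.67) without cHet replicate 2, and Mdga2 (1.92) without cHet replicate 1. Rgs5 (-5.27) and Tafa1 (-5.0) grew without cKO replicate 1, and Zic1 (1.04) without cKO replicate 2. With doublets left out 2 of 21 shrank to under 50% (Kcnh7 at 0.35 and Mdga2 at 0.44), without very large barcodes 3 of 23 (Dlg2 at -0.80, Kcnh7 at 0.85 and Rasgrp2 at -0.68), without heart-field cells 3 of 21 (Gata6 at -0.16, Kcnh7 at 0.31 and Osr1 at -0.21), without cells with Pf4 1 (Rasgrp2) and after thinning 1 of 12 (Cobll1 at 0.42). The 80 differing genes became 4 after thinning (Erbb4 among them), 34 without heart-field cells (where 1010001N08Rik turned to 2.15, Rgs5 to 0.229 and Id2 to 0.0504), 34 without the leading cells and 2 with DESeq2. Genes over 2-fold lower in members numbered 73, 127 with 1 CPM added, 114 after thinning, 117 without doublets and 74 to 131 without single libraries (131 without cKO replicate 1), and those over 2-fold higher numbered 129 and stayed between 136 and 173. All 35 named ratios kept their sign. The difference in share, 0.20 points, was 0.352 with at least 2000 genes per barcode and -0.0852 with Adamtsl1 not required. After thinning cKO was higher in both replicates. Causes were not tested. The limits are 2 pools per genotype, 74 members in cHet Rep1 and genes found in few cells.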
